A study of Homo sapiens with 6 samples.

Results

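The circadian factors described here are 10 genes listed by symbol, of 19775 genes on the array: the E-box repressors BHLHE40 and BHLHE41, the period genes PER1, PER2 and PER3, the cryptochrome genes CRY1 and CRY2, the activator CLOCK, the nuclear receptor gene NR1D2 and the output regulator DBP. They were taken as every probe set carrying one of these symbols in the platform annotation, which gave 26 probe sets of 54675. The rule itself uses no measured value, but the genes were listed with earlier results of these data known. Shares of these genes given below therefore describe this list and are not a blind test of it. Of the 10 genes, 9 had a probe set that named no other gene and passed the filter on low signal. PER1 is annotated on all 4 of its probe sets together with MIR6883 and is treated apart.

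The study asked what loss of CYLD, a deubiquitinase that restrains NF-κB signalling, does to RNA in SAS cells, an established line of human oral squamous cell carcinoma. The 6 Affymetrix arrays comprised siCYLD with ALK5 inhibitor (1 array), siCtrl with ALK5 inhibitor (1 array), siCYLD without inhibitor (2 arrays) and siCtrl without inhibitor (2 arrays). ALK5 is the TGF-β type I receptor. Cells grew for 2 days after transfection and then spent 48 h in medium without serum, with the inhibitor or with DMSO, and the DMSO arrays are called untreated below. All arrays come from that 1 time point, so no position in a daily cycle was measured. The titles name no second siRNA against CYLD and no rescue, so CYLD loss and other effects of the siRNA cannot be told apart.

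The mammalian clock is a feedback loop of transcription. CLOCK, or its paralog NPAS2, pairs with BMAL1 and activates genes through E-box sequences, among them the PER and CRY genes, whose proteins then inhibit the activator. BHLHE40 and BHLHE41, also called DEC1 and DEC2, bind the same E-boxes as repressors, and BHLHE40 is also known as a gene induced by serum, hypoxia and TGF-β. NR1D2, or REV-ERBβ, is a heme-binding repressor of BMAL1, and DBP activates genes through D-boxes at the end of the E-box arm.

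Because the loop runs through these short sequences, the promoters of the 10 genes were searched for them. RefSeq (GRCh38.p14) gave 14 annotated starts, and the 250 bases before each were read on both strands. The canonical E-box CACGTG lay before BHLHE40, BHLHE41, NR1D2 and PER1, 4 of 10 genes, and in 6.34% of all 35116 windows of that length. The variant CACGTT lay before CLOCK, CRY1, CRY2 and PER2, also 4 genes, and in 4.55% of all windows. A D-box, TTATGTAA or TTACGTAA, lay before NR1D2 and PER3 and in 0.94% of all windows. A gene counted if any of its windows matched (14 windows for 10 genes), so gene counts and window shares differ in unit. No match overlapped another in these genes. No match was found before DBP, which says only that these letters are absent from that window.

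The windows of 5 genes that changed with the knockdown are shown, 3 with the canonical E-box and 2 with the variant. CLOCK also changed and has the variant, beginning 187 bases before its second annotated start, but its windows are not shown. Capitals mark the matches, and a match is a description of the sequence, not evidence of binding. The BHLHE40 window is chr3:4979187-4979436 on the plus strand, and its E-box begins 245 bases before the start. The BHLHE41 window is chr12:26125038-26125287 on the minus strand, with the E-box beginning 48 bases before the start. NR1D2, which has no match before its first annotated start, is shown before its second, chr3:23945871-23946120 on the plus strand. It has a D-box on the opposite strand beginning 194 bases before that start and E-boxes beginning at 155 and 105 bases. The PER2 window is chr2:238288611-238288860 on the minus strand, with the variant beginning 197 bases before the start. The CRY1 window is chr12:107093550-107093799 on the minus strand, with the variant on the opposite strand beginning 89 bases before the start.
BHLHE40: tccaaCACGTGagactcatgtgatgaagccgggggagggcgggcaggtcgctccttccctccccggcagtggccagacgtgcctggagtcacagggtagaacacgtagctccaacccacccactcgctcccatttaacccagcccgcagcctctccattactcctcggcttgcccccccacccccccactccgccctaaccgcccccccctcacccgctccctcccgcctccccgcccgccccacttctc
BHLHE41: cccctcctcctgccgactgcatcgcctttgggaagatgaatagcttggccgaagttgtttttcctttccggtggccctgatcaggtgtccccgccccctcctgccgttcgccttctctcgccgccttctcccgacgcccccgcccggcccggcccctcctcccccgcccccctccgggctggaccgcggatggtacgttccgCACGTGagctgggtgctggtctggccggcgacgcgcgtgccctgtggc
NR1D2: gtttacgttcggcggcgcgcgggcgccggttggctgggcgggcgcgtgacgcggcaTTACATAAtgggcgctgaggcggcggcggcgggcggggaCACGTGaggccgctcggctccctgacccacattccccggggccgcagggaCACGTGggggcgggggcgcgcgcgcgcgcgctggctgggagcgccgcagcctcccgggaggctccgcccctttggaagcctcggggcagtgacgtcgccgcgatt
PER2: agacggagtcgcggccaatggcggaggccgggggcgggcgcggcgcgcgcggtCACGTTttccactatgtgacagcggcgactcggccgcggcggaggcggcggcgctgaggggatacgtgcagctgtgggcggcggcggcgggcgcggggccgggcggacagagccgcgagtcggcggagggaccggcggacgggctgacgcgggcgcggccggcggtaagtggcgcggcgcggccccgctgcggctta
CRY1: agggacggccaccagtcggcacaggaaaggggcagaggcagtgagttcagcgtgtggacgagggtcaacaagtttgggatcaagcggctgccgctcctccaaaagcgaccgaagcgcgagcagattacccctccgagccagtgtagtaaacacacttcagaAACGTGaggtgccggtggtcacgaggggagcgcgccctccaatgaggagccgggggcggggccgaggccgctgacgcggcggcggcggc

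Every array had a trimmed mean of 500.1 as deposited, so their common level is not a finding, and median signals ran from 73.4 to 84.8. Duplicates correlated at 0.988 for siCYLD and 0.9867 for siCtrl over the genes tested. Title and source name disagree for siCYLD replicate 1 and siCtrl replicate 2, and groups follow the titles. CYLD itself read 278 and 230 in siCYLD against 411 and 500 in siCtrl, and 176 against 349 with the inhibitor, so it ran with the titles. Its untreated difference was -0.80 on the log2 scale (adjusted p = 0.0065, limma). The epithelial label was borne out by EPCAM (20221 to 21944 over all arrays) and CDH1 (11742 to 15156), although KRT14 read only 62.3 to 148. Not all 7 squamous markers were steady. KRT5 ran from 900 to 12525, highest on the 2 inhibitor arrays. DSG3 read 754 and 820 in untreated siCYLD against 1211 and 1261 in siCtrl, and was called lower (-0.64, adjusted p = 0.0022, limma). Above the filter were 4 of 7 fibroblast markers (COL1A1 at 284 to 399 and PDGFRB at 228 to 307 were the brightest), 2 of 4 leukocyte markers (CD3E at 55.2 to 113 and ITGAM at 62.1 to 104) and 3 of 4 endothelial markers. Below it lay COL3A1 (10.8 to 23.5), LUM and THY1 of the fibroblast list, PTPRC (4.16 to 42.3) and CD14 of the leukocyte list, and the endothelial KDR (1.95 to 25.5). The summed signal of the 7 fibroblast markers was 886 to 910 on siCYLD arrays and 741 to 863 on siCtrl arrays, and its part in the differences below was not tested. Whether duplicates came from separate cultures is not stated, and the p-values therefore cover the spread among these arrays alone, possibly a technical one.

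**Figure D1:**
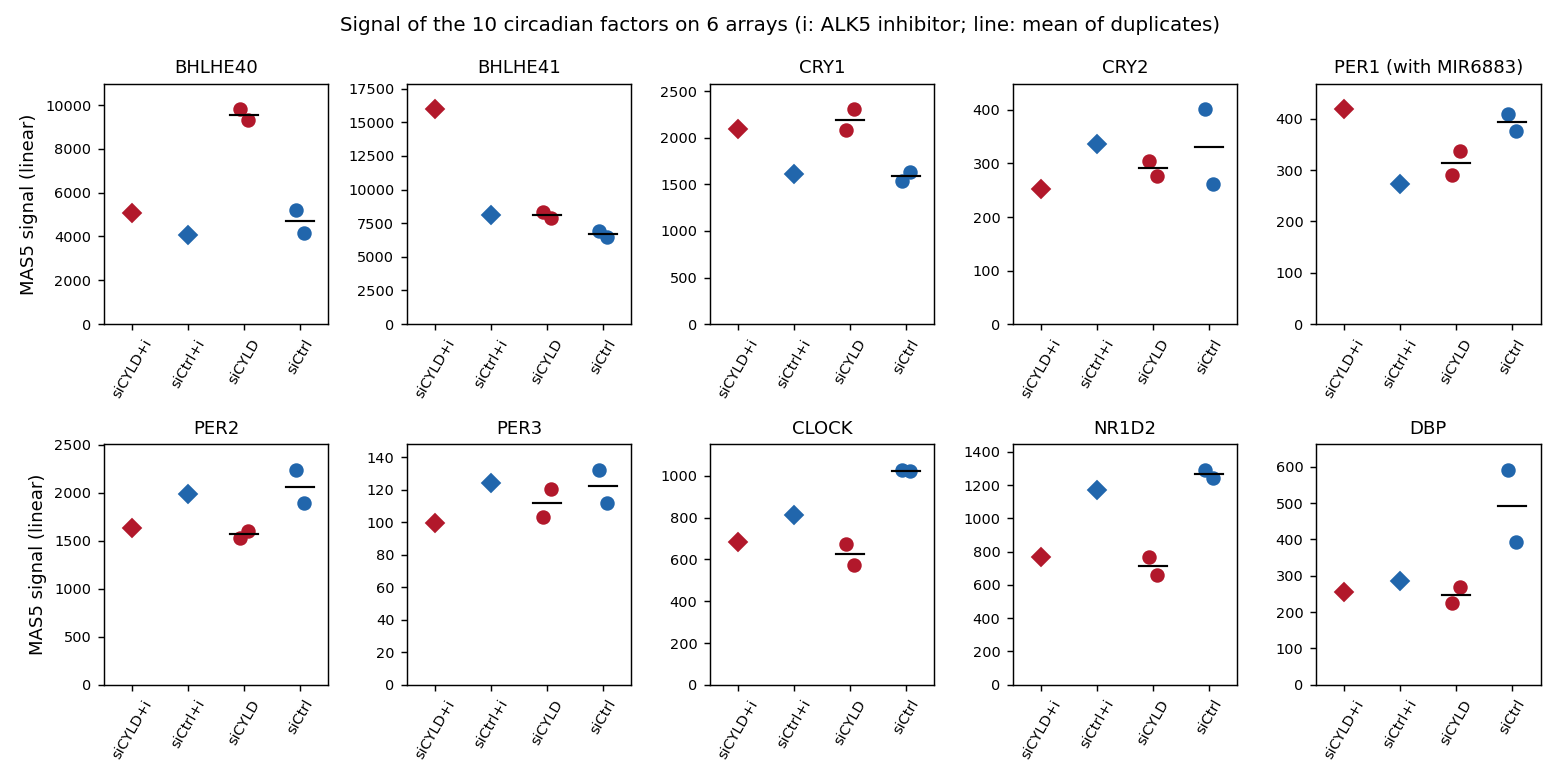
Linear MAS5 signal of the probe set used for each of the 10 genes, with 1 point per array, diamonds for arrays with ALK5 inhibitor, circles for untreated arrays and lines at the mean of duplicates. BHLHE40 stands at 9803 and 9320 in untreated siCYLD arrays and at or below 5224 in the other 4, while NR1D2 is at or below 769 on every siCYLD array and at or above 1173 on every siCtrl array.

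With the CYLD siRNA, BHLHE40, BHLHE41 and CRY1 rose, and PER2, CLOCK, NR1D2 and DBP fell. PER3 and CRY2 did not pass the test. That is 7 of 9 genes called at an adjusted p below 0.05 by limma, 3 higher and 4 lower, where 21.3% of all 12935 genes tested were called, 9.49% higher and 11.8% lower. The median difference of the 9 was -0.15 on the log2 scale, beside -0.04 over all genes. Differences below are siCYLD minus siCtrl in untreated cells on log2(signal + 16.06), 2 arrays against 2, with a standard error. Where these 2 groups are said not to overlap, 60.9% of all genes tested did not overlap either. Counts of other fits cover the groups by title. Grouping by source name called none of the 9 genes for the knockdown (adjusted p = 0.999 for each, limma).

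BHLHE40 read 9803 and 9320 in siCYLD against 5224 and 4175 in siCtrl. Both siCYLD arrays were well above both siCtrl arrays, a separation in either direction that 60.9% of all genes showed, and the difference of 1.03 ± 0.11 is a 2.04-fold rise (adjusted p = 2.0e-05, limma). Its other probe set, much dimmer, read 204 and 175 in siCYLD against 69.3 and 134 in siCtrl. The groups kept apart there too, with a difference of 0.86 that was not called when every probe set was tested (adjusted p = 0.067, limma). An additive fit without both arrays of conflicting labels, which gives the inhibitor pair more weight, put the rise at 0.58 (adjusted p = 0.0466, limma), still called.

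BHLHE41, the paralog of BHLHE40, rose far less. It read 8323 and 7915 in siCYLD against 6905 and 6475.5 in siCtrl, with no overlap and a difference of 0.28 ± 0.09 (adjusted p = 0.036, limma). A second probe set read 1173 and 1245 in siCYLD against 1051 and 1095 in siCtrl, a difference of 0.17 that was not called. The BHLHE41 call was lost in 7 of 16 other fits, among them those without siCYLD replicate 1 (0.24), siCYLD replicate 2 (0.32) or siCtrl replicate 2 (0.23), with adjusted p values of 0.00716 to 0.196 over the 16. Additive fits, which average in the inhibitor pair, gave 0.51 with all arrays and 0.58 without both arrays of conflicting labels (adjusted p = 0.0575).

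CRY1 encodes the cryptochrome known as the stronger inhibitor of the CLOCK and BMAL1 pair. It read 2080.1 and 2306.5 in siCYLD against 1537 and 1637 in siCtrl, a rise of 0.46 ± 0.11 (adjusted p = 0.0092, limma). Both siCYLD arrays stood above both siCtrl arrays. The call was lost in 3 of 17 other fits: without siCYLD replicate 2 (0.39, adjusted p = 0.0772), with no intensity trend (0.0813) and in the additive fit without both arrays of conflicting labels (0.102). The lowest adjusted p of the 17 was 0.000623. CRY2, its paralog, had 305 and 277 in siCYLD against 401 and 261 in siCtrl. These groups overlapped, and the difference of -0.15 had a 95% interval of -0.59 to 0.29.

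Among the period genes PER2 changed by the test. Its probe set read 1529.7 and 1599.9 in siCYLD against 2234 and 1888 in siCtrl, a fall of 0.39 ± 0.12 on the log2 scale (adjusted p = 0.030, limma). The groups did not overlap. This call was lost in 5 of 17 other fits, including those without siCtrl replicate 1 (-0.27) and without siCYLD replicate 1 (-0.36), with adjusted p values of 0.00535 to 0.219 over the 17. PER3 read 103 and 120 in siCYLD against 132 and 112 in siCtrl, close to the filter limit of 79.3, and the interval of its difference ran from -0.70 to 0.48.

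PER1 has no probe set of its own in this annotation. MIR6883 is annotated to the same probe sets, and a signal there cannot be assigned to one of them by symbol. The probe set whose RefSeq accession is the PER1 transcript read 291 and 336 in siCYLD against 410 and 376 in siCtrl. When such probe sets were assigned by accession, a choice made after seeing the data, its difference was -0.31 ± 0.16 and was not called (adjusted p = 0.195, limma), where 21.5% of the 13133 genes of that fit were. The other PER1 probe sets above the filter differed by -0.21 and -0.02.

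CLOCK, the activating partner of BMAL1, fell. It read 676 and 574 in siCYLD against 1028 and 1024 in siCtrl, a difference of -0.70 ± 0.13 (adjusted p = 0.0019, limma). Of its other probe sets above the filter, one read 417 and 456 in siCYLD against 731 and 595 in siCtrl and was also called (-0.58, adjusted p = 0.021 over all probe sets, limma). The third read 316 and 360 in siCYLD against 436 and 367 in siCtrl and was not called at -0.24. The CLOCK call was lost in 1 of 17 other fits, the additive fit without both arrays of conflicting labels (-0.53, adjusted p = 0.111), in a range of 4.94e-06 to 0.111.

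NR1D2 fell on both of its probe sets. The brighter read 769 and 657 in siCYLD against 1289 and 1241 in siCtrl, a difference of -0.82 ± 0.13 (adjusted p = 0.00047, limma). The other read 482 and 330 in siCYLD against 675 and 812 in siCtrl and differed by -0.86 (adjusted p = 0.0064 over all probe sets). Neither overlapped between groups, and the NR1D2 call held in all 17 other fits of the titled groups. With the inhibitor the brighter probe set read 769 in siCYLD and 1173 in siCtrl.

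DBP read 226 and 270 in siCYLD against 591 and 393 in siCtrl. Its fall of 0.92 ± 0.20 (adjusted p = 0.0057, limma) is 1.89-fold, and its siCtrl duplicates differed more from each other than those of CLOCK or NR1D2. The call was lost in 3 of 16 other fits, without siCtrl replicate 1, the higher array (-0.63, adjusted p = 0.0556), with no intensity trend (0.0761) and in the additive fit without both arrays of conflicting labels (-0.61, 0.148). The lowest adjusted p of the 16 was 5.21e-06. Its second probe set lay below the filter, at 53.4 and 93.8 in siCYLD against 6.89 and 72.2 in siCtrl, and was not tested, although its values ran the other way.

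**Figure D2:**
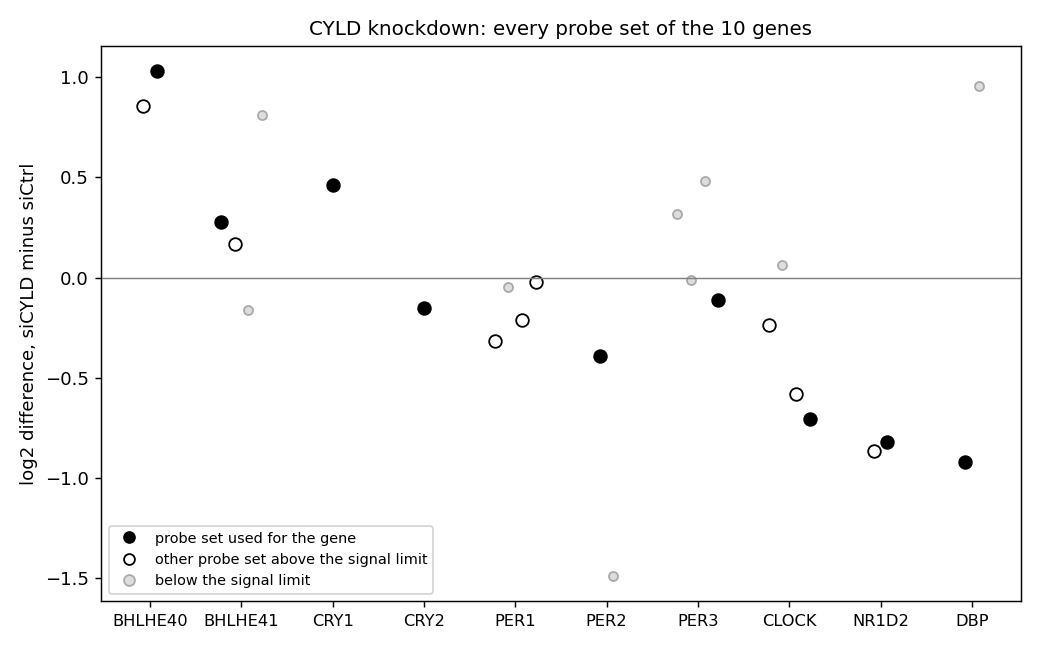
Log2 difference of untreated siCYLD minus siCtrl for all 26 probe sets of the 10 genes, each point being 1 probe set and the mean of 2 arrays less the mean of 2. Every probe set above the signal limit lies on the same side of 0 as the others of its gene, from 1.03 for BHLHE40 to -0.92 for DBP, whereas grey points below the limit lie on both sides.

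The same arrays differed in a measure of RNA quality and in added controls. The ACTB 3'/5' ratio was 2.26 to 2.48 on the siCYLD arrays and 3.21 to 3.67 on the siCtrl arrays. The GAPDH ratio overlapped, at 1.80 to 1.97 in siCYLD and 1.79 to 2.14 in siCtrl. In the 3 pairs of siCYLD and siCtrl arrays, the median poly-A spike difference was 0.181 to 0.398 on the log2 scale, higher in siCYLD. The median difference of the hybridization controls was 0.0147 to 0.227, also higher in siCYLD. The part of these measures in the knockdown differences was not tested. In bulk RNA, a change in how many cells express a gene and a change in RNA per cell cannot be told apart.

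In the single pair of arrays with inhibitor the siCYLD minus siCtrl differences were not tested here. NR1D2 differed by -0.60, CRY1 by 0.38, PER2 by -0.27 and CLOCK by -0.24, each with the sign it had in untreated cells. DBP differed by only -0.14, at 256 in siCYLD and 285 in siCtrl. BHLHE40 differed by 0.32 and BHLHE41 by 0.97 on the probe sets used, and by 0.69 and 0.66 on their second probe sets. Over all 6 arrays, 5 of the 9 genes had every siCYLD array above or below every siCtrl array (CRY1 above, and PER2, CLOCK, NR1D2 and DBP below), where 27.9% of all genes tested did.

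The rest of the loop was read from a list of 18 other clock genes, of which 13 were tested: 3 rose and 1 fell with the knockdown, where 9.49% of all genes were called higher and 11.8% lower. Their median difference was -0.13 on the log2 scale, beside -0.04 over all genes. NPAS2, the CLOCK paralog, read 1044 and 1108 in siCYLD against 383 and 298 in siCtrl, a rise of 1.62 ± 0.15 (adjusted p = 6.8e-06, limma). It moved opposite to CLOCK, and in the inhibitor pair it still differed by 1.48. BMAL2, a paralog of BMAL1, read 859 and 981 in siCYLD against 316 and 336 in siCtrl and rose by 1.45 ± 0.14. BMAL1 itself read 475 and 497 in siCYLD against 559 and 717 in siCtrl and was not called (-0.37, adjusted p = 0.112, limma).

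CSNK1E, a kinase that phosphorylates PER proteins, rose by 0.47 ± 0.09. It read 6088 and 6617 in siCYLD against 4605 and 4582 in siCtrl. TIMELESS, which works mainly at replication forks in mammals, fell by 0.83 ± 0.13. It read 622 and 665 in siCYLD against 1065 and 1260 in siCtrl. The other 9 genes tested were not called.

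Of 9 output genes of the clock, 8 were tested, 2 rose and 3 fell, with a median of -0.39, beside the same shares and median over all genes. WEE1, the kinase that holds back mitotic entry, read 1140 and 1264 in siCYLD against 2638 and 3042 in siCtrl and fell by 1.23 ± 0.11. KLF10, also an early TGF-β response gene, read 3720 and 3592 in siCYLD against 1763 and 1792 in siCtrl and rose by 1.03 ± 0.10. NAMPT, the rate-limiting enzyme of NAD salvage, rose by 0.58 ± 0.09. The nuclear receptor gene PPARA fell by 0.50 ± 0.12, and the glucocorticoid-induced gene TSC22D3 fell by 0.39 ± 0.13.

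**Figure D3:**
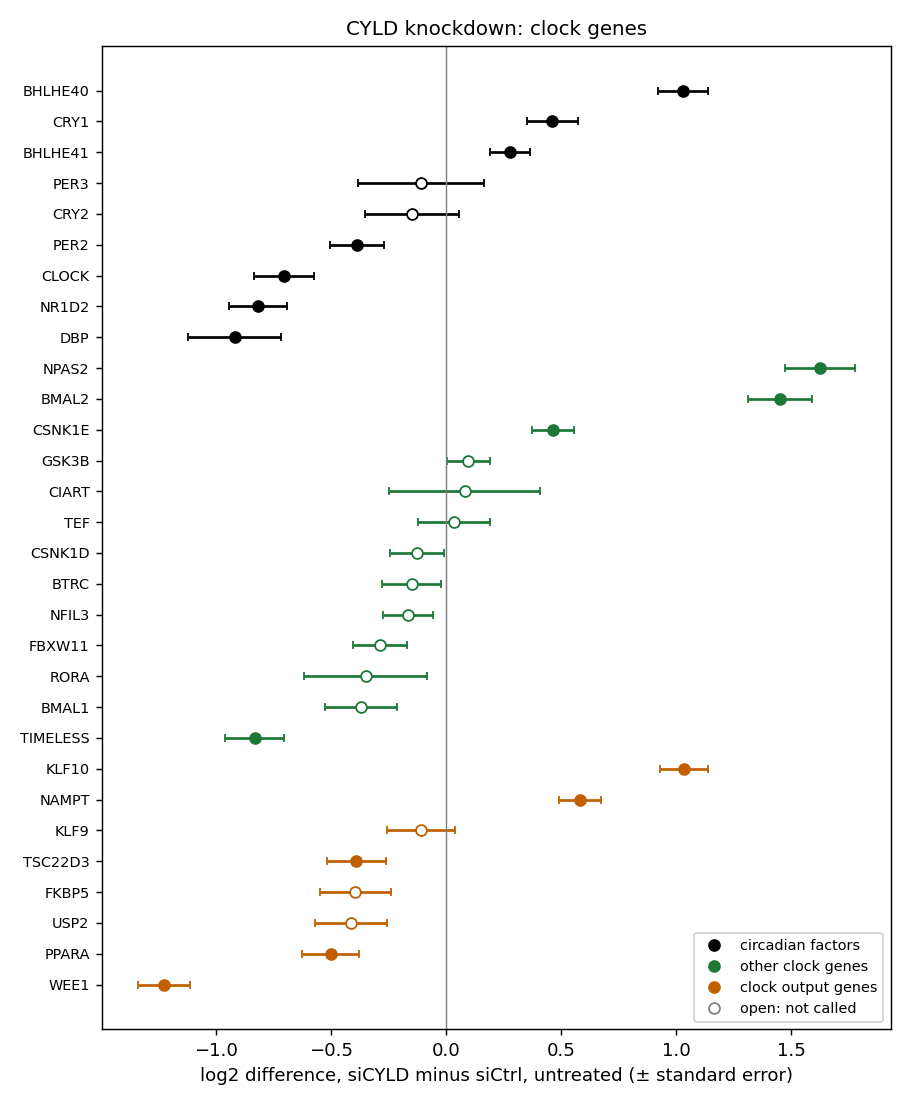
Log2 difference of untreated siCYLD minus siCtrl with its standard error (2 arrays against 2) for the 9 circadian factors tested, 13 other clock genes and 8 clock output genes. Filled points passed the test, from NPAS2 at 1.62 to WEE1 at -1.23, and open points did not.

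With the ALK5 inhibitor BHLHE40 was lower and BHLHE41 higher on the probe sets used, and no other of the 9 genes passed the test for it. Across both siRNAs, 2 arrays with inhibitor against 4 untreated, 2 of 9 genes were called, 1 higher and 1 lower, where 20% of all genes (2586 of 12935) were, 11.2% higher and 8.82% lower. BHLHE40 fell by 0.56 ± 0.15 on the log2 scale (adjusted p = 0.024, limma), and BHLHE41 rose by 0.63 ± 0.13 (adjusted p = 0.0087, limma). The BHLHE40 call was lost in 6 of 15 other fits and the BHLHE41 call in 3, both of them without the siCYLD inhibitor array (-0.20 and 0.28). That fit takes the inhibitor difference from siCtrl cells alone. The fit without the siCtrl inhibitor array takes it from siCYLD cells alone (-0.91 and 0.97). BHLHE40 was also lost with no filter, with no intensity trend and without siCYLD replicate 1 (-0.49), siCYLD replicate 2 (-0.52) or siCtrl replicate 1 (-0.54).

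In siCYLD cells BHLHE40 read 5063 with the inhibitor against 9803 and 9320 without it. That is a fall of 0.91 ± 0.13 (adjusted p = 0.00039, limma), beside 5224 and 4175 in untreated siCtrl cells. The inhibitor value is 1 array, so the spread behind that p is that of the duplicates. The second BHLHE40 probe set read 141 with the inhibitor against 204 and 175 without it, and its difference of -0.39 was not called (adjusted p = 0.518 over all probe sets, limma). BHLHE41 read 15967 with the inhibitor against 8323 and 7915 without it, a rise of 0.97 ± 0.11 (adjusted p = 3.8e-05, limma), and was higher there than on any other array. Its second probe set read 1613 with the inhibitor against 1173 and 1245 without, a difference of 0.41 that was not called (adjusted p = 0.0691 over all probe sets, limma). These were 2 of 9 genes called, 1 higher and 1 lower, where 22.4% of all genes were, 12.2% higher and 10.2% lower.

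In siCtrl cells 0 of 9 genes were called by limma, where 9.36% of all genes were, 5.02% higher and 4.34% lower. At an unadjusted p under 0.05 (limma) there were 2 of the 9, beside 3137 of all 12935 genes. BHLHE40 read 4050.5 with the inhibitor against 5224 and 4175 without it (-0.20, 95% interval -0.49 to 0.08). BHLHE41 read 8136 with the inhibitor against 6905 and 6475.5 without it (0.28, interval 0.05 to 0.51, adjusted p = 0.12), whereas its second probe set read 1019 with it against 1051 and 1095 without (-0.07). DBP read 285 with the inhibitor against 591 and 393 without it, a difference of -0.73 that was not called (adjusted p = 0.089, limma). It was called in 4 of 13 other fits: with the replicate block, and without siCYLD replicate 1, siCYLD replicate 2 or siCtrl replicate 2. Leaving out a siCYLD array did not alter the DBP difference of -0.73, which uses siCtrl arrays alone. With the replicate block the DBP difference was -0.81. Its adjusted p was 0.00804 with the replicate block and 0.252 with no intensity trend (limma).

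Whether the inhibitor acted alike in both siRNAs was tested as an interaction, in which each inhibitor arm is 1 array with no replicate of its own. BHLHE41 passed, its inhibitor difference being larger in siCYLD than in siCtrl cells by 0.69 ± 0.15 (adjusted p = 0.037, limma), as 1 of 9 genes, where 1.67% of all genes were called, 0.982% with a positive interaction and 0.688% with a negative one. The call was lost in 4 of 12 other fits, among them the mean of its probe sets (0.59), with adjusted p values of 0.000288 to 0.322. For BHLHE40 the interaction was -0.71 ± 0.19 and was not called (adjusted p = 0.093, limma). It was called in 4 of 12 other fits: with the replicate block, and without siCtrl replicate 1 (-0.87), siCYLD replicate 1 (-0.67) or siCYLD replicate 2 (-0.75). Its adjusted p was 0.000695 with the replicate block and 0.449 with the mean of its probe sets (limma).

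The other members kept within wide intervals. For CRY1 the inhibitor difference across both siRNAs was -0.02 with a 95% interval of -0.24 to 0.21, for PER2 0.01 (-0.23 to 0.25) and for NR1D2 0.00 (-0.26 to 0.26). DBP lay farther from no difference, at -0.34 (-0.81 to 0.14). CLOCK was at -0.10 (-0.40 to 0.20), CRY2 at -0.07 (-0.48 to 0.34) and PER3 at -0.06. The PER1 probe set named by accession read 418 with the inhibitor against 291 and 336 in siCYLD cells, and 274 with it against 410 and 376 in siCtrl cells. Its interaction of 0.90 ± 0.28 was not called (adjusted p = 0.156, limma).

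**Figure D4:**
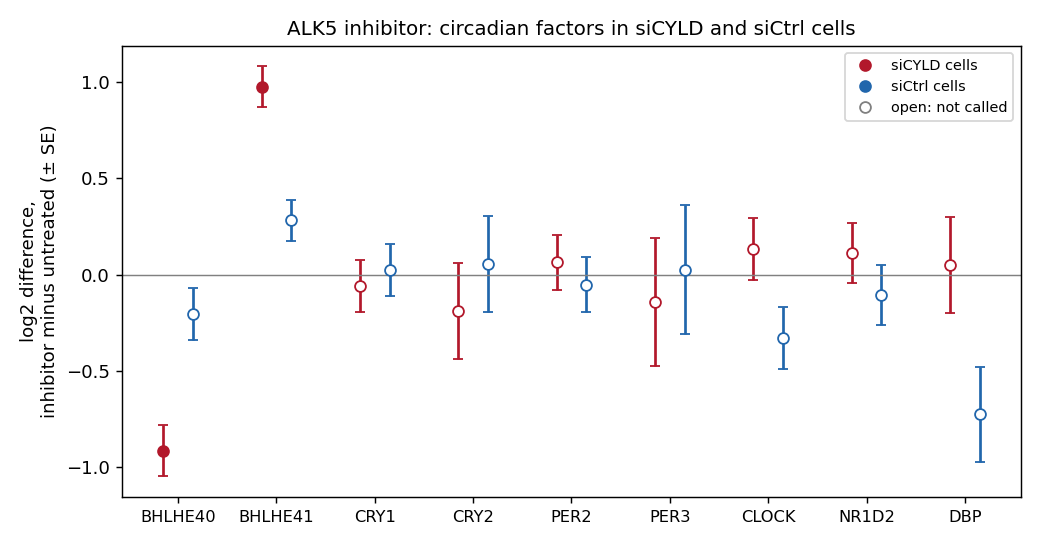
Log2 difference of inhibitor minus untreated with its standard error for 9 circadian factors, in siCYLD cells (red) and siCtrl cells (blue), 1 array with inhibitor against 2 without in each. BHLHE40 at -0.91 and BHLHE41 at 0.97 in siCYLD cells are filled as called, and all other points are open.

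Of the 13 other clock genes tested, 0 rose and 3 fell with the inhibitor across both siRNAs, a count near the 20% of all genes called. BMAL1 fell by 0.65 ± 0.17 (adjusted p = 0.024, limma), reading 389 with the inhibitor against 475 and 497 in siCYLD cells, and 309 with it against 559 and 717 in siCtrl cells. RORA, a nuclear receptor that activates BMAL1, fell by 0.85 ± 0.24, and CSNK1D fell by 0.35 ± 0.11. RORA was dim, near the filter limit of 79.3. It read 69.8 with the inhibitor against 196 and 121 in siCYLD cells, and 117 with it against 194 and 209 in siCtrl cells. Of the 8 output genes, WEE1 rose by 1.01 ± 0.11, while KLF10 and USP2 fell by 1.02 ± 0.10 and 0.60 ± 0.14. For KLF10 the inhibitor difference was -1.01 in siCYLD and -1.02 in siCtrl cells. Endothelial markers moved with the inhibitor too: their summed signal over 4 genes was 845 and 967 with it and 250 to 365 without. CDH5 and VWF lay below the filter limit of 79.3 on every untreated array. They passed the filter only through the inhibitor arrays, so only their values are given. CDH5 read 462 and 587 with the inhibitor and 5.83 to 63.0 without it, VWF read 169 and 169 with it and at most 71.4 without, PECAM1 read 188 to 216 over all arrays, and KDR 1.95 to 25.5. The epithelial marker KRT5 rose as well, reading 5595 in siCYLD and 12525 in siCtrl with the inhibitor and 900 to 1245 without it. How these marker signals bear on the inhibitor differences of the circadian factors was not tested.

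The 5 genes whose profile over the 6 arrays lay nearest that of BHLHE40 were FMNL3, TNS1, PLXND1, SOCS3 and LACC1. Nearness was the root mean square difference of log2 values after centring each gene, 0.0902 for FMNL3 and 0.130 for LACC1. SOCS3, a feedback inhibitor of cytokine signalling, read 1528 and 1178 with the inhibitor in siCYLD and siCtrl cells, and 2690 and 3155 in untreated siCYLD against 1328 and 1281 in untreated siCtrl cells. FMNL3, a formin that nucleates actin, read 272 and 222 with the inhibitor, and 594 and 580 in untreated siCYLD against 294 and 271 in untreated siCtrl cells. Among the circadian factors the nearest was CRY1 at 0.371 and the farthest NR1D2 at 0.847.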

How the data were processed

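Total RNA from 6 samples of SAS cells was hybridised to Affymetrix arrays. The authors deposited linear intensities, here called signals, for every probe set. Per the submitters' processing notes these came from MAS5, whose version is, like the genome build, not given in the sources used here. Every array had a trimmed mean (2% off each end) of 500.1. Precision is limited by how few arrays there are.

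The scale was log2(signal + 16.06), with the 20th percentile of the values as offset. Of 41091 probe sets with 1 gene symbol, 24537 were kept, their highest group mean lying above the median of all values (a signal of 79.3). The brightest kept probe set stood for a gene, which gave 12935 genes. Fold changes are on this offset scale, which understates changes of dim genes. The fits used limma 3.58.1 (R 4.3.3) with an intensity trend, Benjamini-Hochberg adjustment over all genes and a two-sided threshold of 0.05. Knockdown, interaction and inhibitor within each siRNA came from 4 group means (2 residual degrees of freedom), and the inhibitor across both siRNAs from an additive model (3). The single inhibitor arrays took their spread from the duplicates. The fit was tested on simulated data. Data were read with data.table (version 1.17.8) and figures drawn with matplotlib 3.10.9 in Python 3.11.15.

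Named were the circadian factors, called genes of both clock lists, CYLD and the 5 genes nearest BHLHE40. Members and lists were chosen with earlier results of these data known. ARNTL and ARNTL2 of the list appear as BMAL1 and BMAL2. Alternatives changed the offset, filter, trend, scaling, probe sets, labels, replicate block and arrays. The replicate block placed both inhibitor arrays with replicate 1, which their titles do not state. The platform annotation named 1801 probe sets with several symbols, and 388 of these were assigned by RefSeq accession as an added alternative. Markers with no probe set of 1 symbol were not analysed here.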

Additional observations from a re-analysis of the deposited data

Results flagged for a closer look

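BHLHE41 was singled out because its response to the inhibitor differed between siCYLD and siCtrl cells. The interaction was 0.69 on the log2 scale (adjusted p = 0.037, limma), from 15967 with inhibitor against 8323 and 7915 without in siCYLD cells, and 8136 with inhibitor against 6905 and 6475.5 without in siCtrl cells. Each inhibitor value is 1 array with no replicate of its own, and the second BHLHE41 probe set was not called (0.48, adjusted p = 0.356 over all probe sets, limma).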

How the results depend on the processing

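Arrays grouped by source name instead of title gave BHLHE40 and BHLHE41 knockdown differences of -0.20 and -0.082, and 0 genes called for the knockdown, for the inhibitor in either siRNA and for the interaction by limma (104, 1420 in siCYLD, 1206 in siCtrl and 524 at an unadjusted p under 0.05), with 27 genes and 0 members for the inhibitor across both siRNAs. The additive fit without both conflicting arrays called 2 members and 943 genes for the knockdown and 1241 genes for the inhibitor. The offset and quantile normalization changed no call of the 45 member results. With no filter, 1819 genes were called for the inhibitor in siCYLD, 478 in siCtrl and 33 for the interaction, with 0 members there and 1 across both siRNAs. With no intensity trend the knockdown called 3 members and 1219 genes, the inhibitor 1 member and 1055 genes in siCYLD, 35 genes in siCtrl, 0 members and 1087 genes across both, and the interaction 0 of either. With the mean of probe sets the interaction called 0 members and 95 genes, and the inhibitor across both called 1 member. Testing every probe set left 0 members for the interaction. Without _x_at and _s_at probe sets 5 members could be tested, and 4 were called for the knockdown. For the inhibitor in siCYLD, across both or for the interaction (134 genes) 0 were called. BHLHE40 and BHLHE41, the only members called for the inhibitor or interaction in the main fit, were not among the 5. Their probe sets above the filter are all _s_at, so that 0 was fixed in advance. Same-numbered arrays did not deviate together (correlation 0.0447, 2 pairs), and the replicate block called 1 member and 2152 genes for the inhibitor in siCtrl, 2 members and 723 genes for the interaction and 1474 genes across both. Leaving out each array in turn gave 5 to 7 members and 2110 to 2827 genes for the knockdown, 2 to 2 members and 2452 to 3502 genes for the inhibitor in siCYLD, 0 to 1 and 891 to 1680 in siCtrl, 1 to 2 and 288 to 459 for the interaction, and 0 to 2 and 1266 to 2925 across both. These compare with 7 members and 2757 genes, 2 and 2900, 0 and 1211, 1 and 216, and 2 and 2586. Without 1 of the inhibitor arrays, the fit across both siRNAs takes its inhibitor difference from the other siRNA alone. The cause of the shifts between fits was not tested. Signal near background limits PER3, RORA and the dim probe sets of the other genes.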
